A study of Oryctolagus cuniculus with 8 samples.

Results

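Genes of the microtubule cytoskeleton and its motor proteins were examined in the forebrain of preterm rabbit pups. Members were chosen by the wording of the array's probe descriptions: tubulin, kinesin, dynein, dynactin, microtubule-associated protein, neurofilament or stathmin. KIF20A, TPX2, DNAI1 and the tubulin tyrosine ligase-like genes were left out. Of the 43603 probes on the array, 260 belonged to this set, and they named 88 of the 23385 genes and unnamed transcripts measured. The rule used no measured value.

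Two-colour Agilent rabbit arrays measured forebrain RNA in 4 saline and 4 dexamethasone samples, which the design text calls biological replicates. All pups were of the New Zealand breed, were delivered by Caesarean section on day 29 of a gestation of 32 days, were fed by gavage, and were killed at postnatal day 14. The dexamethasone pups received this synthetic glucocorticoid into muscle in doses of 0.25 mg/kg given 2 times daily over a maximum of 5 days, and the control pups received the saline vehicle. The series' title names the question as the effect of postnatal glucocorticoids on myelination. The 2 samples of an array always came from 1 group, with Cy3 on samples 1 and 3 and Cy5 on samples 2 and 4. Both saline arrays lay on slide 1 and both dexamethasone arrays on slide 2, each slide scanned on its own day, so slide, scan day and treatment cannot be told apart.

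Microtubules are hollow polymers of alpha- and beta-tubulin that give neurons their long processes and serve as tracks for transport. Kinesins mostly carry cargo outward along axons, and cytoplasmic dynein, with its activator dynactin, carries it back toward the cell body. Microtubule-associated proteins and neurofilaments stabilise the axon, stathmins release tubulin from the polymer, and other kinesins and dyneins build the mitotic spindle or beat in cilia.

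Between 39.1% and 64.3% of spots were well above background in a sample, and 164 to 231 of the 260 member probes were. Saline samples had 932 to 3022 spots marked as outliers, and dexamethasone samples had 197 to 509. Outlier spots were treated as missing. The labelled tissue was checked against cell type markers: 4 of 10 neuronal, 5 of 10 myelin and 6 of 8 astrocyte markers were tested, and none of the measured ones in these lists stayed at background in all samples. FOXJ1, PECAM1 and FLT1 of the ependymal and endothelial lists were well above background in no sample. Spike-in RNA, which was added to each sample, gave 10 probes whose normalised values differed by -0.55 to -0.30 (dexamethasone minus saline, log2, median -0.39), and the part of this in the results below was not tested.

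The probe sequences matter for this set because a gene's value rests on a 60-base probe, and neighbouring probes did not always give the same difference. The largest single difference among tested members with a p under 0.05 belonged to KIF5C, a heavy chain of kinesin-1, the motor that carries vesicles and mitochondria along axons. Its 5 tiled probes start within 9 bases of each other on chr7:87595883-87595950 (plus strand, build oryCun2), and the sixth lies further along the gene at chr7:87632538-87633144, where its 60 bases are split over a longer genomic span. Capitals mark the 51 bases that all 5 tiled probes share.
A_04_P024815: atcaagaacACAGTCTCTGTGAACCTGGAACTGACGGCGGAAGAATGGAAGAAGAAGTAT
A_04_P024814: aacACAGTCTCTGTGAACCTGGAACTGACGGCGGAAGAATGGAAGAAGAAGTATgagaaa
A_04_P024813: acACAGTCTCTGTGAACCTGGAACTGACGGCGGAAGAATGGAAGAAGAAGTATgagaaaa
A_04_P024812: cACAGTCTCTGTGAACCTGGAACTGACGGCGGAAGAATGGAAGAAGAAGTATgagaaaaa
A_04_P024811: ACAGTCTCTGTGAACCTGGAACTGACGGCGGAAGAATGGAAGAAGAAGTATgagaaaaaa
A_04_P024136: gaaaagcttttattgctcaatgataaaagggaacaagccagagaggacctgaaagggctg

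MAP1B, a protein that binds microtubules in growing axons, and KIF1B, a motor for synaptic vesicle precursors and mitochondria, are shown because all their fitted probes gave differences of the same sign. This was so in 23 of the 37 tested genes with 2 or more fitted probes, MAP1B and KIF1B among them. The MAP1B probes have no position in the array's annotation, and the KIF1B probes lie on the minus strand at chr13:139960689-139960766. Capitals mark the 56 bases shared by the MAP1B pair and the 40 shared by the KIF1B pair.
MAP1B A_04_P098601: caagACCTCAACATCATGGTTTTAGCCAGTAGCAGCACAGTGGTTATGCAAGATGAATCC
MAP1B A_04_P098597: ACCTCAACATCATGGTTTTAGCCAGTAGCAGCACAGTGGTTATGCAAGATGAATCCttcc
KIF1B A_04_P082913: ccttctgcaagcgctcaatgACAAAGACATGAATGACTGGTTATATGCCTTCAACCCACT
KIF1B A_04_P082912: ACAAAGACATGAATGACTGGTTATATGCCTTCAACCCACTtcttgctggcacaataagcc

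The 4 probes of TUBA8, an alpha-tubulin, are shown because each starts 1 base from the next and yet they gave differences on both sides of 0. They have no position in the annotation, and capitals mark the 57 bases they share.
A_04_P054665: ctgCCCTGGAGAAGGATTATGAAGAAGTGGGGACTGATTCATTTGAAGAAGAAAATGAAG
A_04_P054664: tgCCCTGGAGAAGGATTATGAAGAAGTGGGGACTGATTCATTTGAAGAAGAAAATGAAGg
A_04_P054663: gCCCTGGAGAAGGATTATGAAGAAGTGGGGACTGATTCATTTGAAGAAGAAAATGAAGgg
A_04_P054662: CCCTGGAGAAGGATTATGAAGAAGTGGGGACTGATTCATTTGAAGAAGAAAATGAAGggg

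Of the 88 genes, 69 could be tested in the comparison of dexamethasone with saline. Another 14 had no probe that rose well above background in 4 or more of the 8 samples, and 5 lost too many values to outlier spots. With limma and Benjamini-Hochberg adjustment over all 11243 genes tested, 0 members passed an adjusted p of 0.05, where 0.0623% of all genes tested did (7 genes). At an unadjusted p under 0.05, 7 of 69 members passed, against 13.7% of all genes. Of these, 3 were higher with dexamethasone (6.33% of all genes) and 4 were lower (7.4% of all genes), so neither share stood above that of all genes. Members were called in 2 alternatives. Without array 1, which leaves the saline group on a single array, 13 of 65 members were called, where 21.2% of all genes were, and with arrays scaled to the 75th percentile without loess 9 of 69 were called, where 18.5% of all genes were.

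Saline and dexamethasone values did not overlap in 5 members, against 13.4% of all genes. In 3 of them dexamethasone was higher (5.92% of all genes) and in 2 it was lower (7.43% of all genes). The median difference over the 69 members was 0.06 on the log2 scale (dexamethasone minus saline), beside 0.02 over all genes tested. The difference was above 0 in 41 of 69 members, where it was above 0 in 54.4% of all genes. In 42 members it was under 0.2 in either direction. The median standard error of a member's difference was 0.14, and nothing in the samples' labels says which pups shared a litter.

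**Figure D1:**
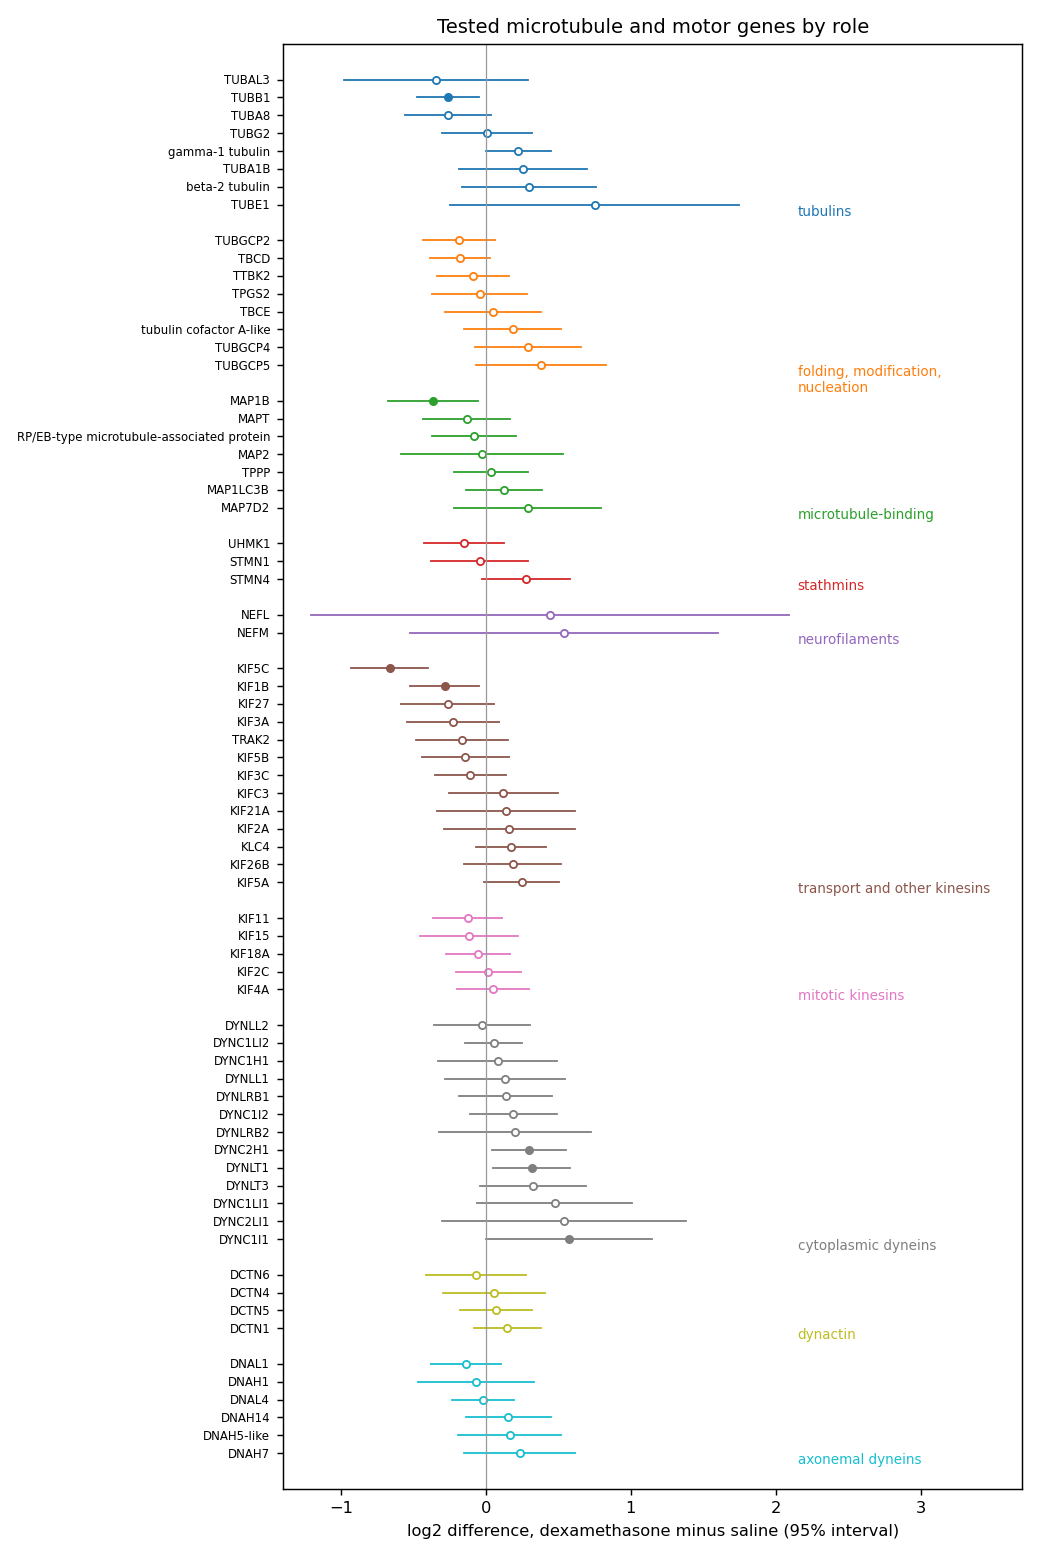
Log2 difference (dexamethasone minus saline) with its 95% interval for the 69 tested genes, grouped by role in 1 colour each, with filled points for an unadjusted p under 0.05. Filled points appear for 7 genes, and 12 of the 13 cytoplasmic dyneins lie to the right of 0.

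Tubulins themselves, the building blocks of the polymer, showed no common direction: of 8 tested of 11, 5 differences were above 0 and 3 below, with a median of 0.12. The brightest was TUBA1B, an alpha-tubulin found in most cells. Its log2 normalised intensity was 17.16, 17.45, 17.40 and 16.95 in saline samples 1 to 4 and 17.57, 17.53, 17.16 and 17.73 in dexamethasone samples 1 to 4. The groups overlapped, with dexamethasone 3 at the level of saline 1, and all 5 fitted TUBA1B probes gave differences above 0, from 0.13 to 0.45. The direction turned to -0.11 with the scanner's processed signals and to -0.08 with the deposited table.

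The TUBA1B probe that shares bases with TUBA4A and the alpha-1B-like gene had too few values for the test, as had both other genes. In dexamethasone samples 1 to 4 that TUBA1B probe read 17.06, 16.52, 16.92 and 16.39. The TUBA4A probe read 15.94, 15.34, 15.96 and 15.39, and the alpha-1B-like probe 15.89, 15.37, 15.66 and 15.09. In all 3 probes samples 1 and 3, which carry Cy3, were higher than samples 2 and 4, which carry Cy5. In TUBA1B's brightest probe, given above, the Cy5 sample 4 was the highest. The part of the shared bases or of the dye in this was not tested.

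TUBB1, a beta-tubulin best known from platelets, was the tubulin with the smallest p. Its values were 12.39, 12.15, 12.54 and 12.28 in saline and 12.21, 12.04, 12.17 and 11.89 in dexamethasone. Its difference was -0.26 (SE 0.09, 95% interval -0.47 to -0.05, limma adjusted p = 0.344 with Benjamini-Hochberg adjustment), and it turned to 0.38 when arrays were scaled to the 75th percentile without loess. Saline 2 lay below dexamethasone 1 and 3, so the groups overlapped.

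Gamma-1 tubulin (LOC100350846), which starts new microtubules at the centrosome, had 9.85, 9.82, 9.95 and 9.92 in saline and 10.10, 10.05, 10.28 and 10.01 in dexamethasone. All 4 dexamethasone samples were above all 4 saline samples, with a difference of 0.22 (SE 0.10, adjusted p = 0.362 by limma with Benjamini-Hochberg).

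The beta-2 tubulin probe (LOC100349792) read 16.44, 16.51, 16.26 and 16.15 in saline and 17.08, 16.29, 16.97 and 16.21 in dexamethasone. Here the 2 Cy3 dexamethasone samples were high and the 2 Cy5 samples lay within the saline range, which gave a difference of 0.68 within Cy3 and -0.08 within Cy5. TUBE1, the epsilon-tubulin of centrioles, had the largest difference of any member, 0.75, with an SE of 0.42, at the probe that stands for it. The other 2 fitted TUBE1 probes gave 0.39 and 0.40. At the first of these probes the values were 11.16, 11.45 and 10.27 in saline 1 to 3, with none for saline 4, and 12.17, 10.89, 11.73 and 11.71 in dexamethasone. Dexamethasone 1, 3 and 4 were above the 3 saline values and dexamethasone 2 among them. The difference was 1.24 within Cy3 and -0.14 within Cy5, where it rests on 1 saline sample.

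TUBA8 was -0.26 (SE 0.13) at the probe that stands for the gene. The neighbouring probes gave -0.35, 0.19 and 0.05, so that 2 of the 4 probes printed above were below 0 and 2 above. At A_04_P054665 saline samples ran from 10.59 to 11.01 and dexamethasone samples from 10.39 to 10.69, and at A_04_P054664 the ranges were 9.34 to 9.64 and 9.50 to 9.85. No direction of TUBA8 therefore held over its probes.

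Genes that fold, modify or nucleate tubulin were balanced: 4 of 8 were above 0 and 4 below, with a median of 0.00. TBCD, a cofactor needed to assemble the alpha-beta tubulin pair, had 10.99, 10.96, 11.05 and 11.02 in saline and 10.74, 10.86, 10.90 and 10.81 in dexamethasone. The groups did not overlap and dexamethasone was lower by a difference of -0.18 (SE 0.09), which turned to 0.29 with 75th-percentile scaling without loess. TBCD rested on 1 fitted probe of 6. TUBGCP5 and TUBGCP4, subunits of the gamma-tubulin ring on which microtubules start, had differences of 0.38 (SE 0.19) and 0.29 (SE 0.16). Both TUBGCP5 probes were above 0, at 0.38 and 0.43, whereas the TUBGCP4 probes ran from -0.04 to 0.29. TUBGCP5 turned to -0.27 with that same scaling, where the median over all genes was -0.24.

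Among the microtubule-binding and stabilising proteins, 3 of 7 tested members were above 0 and 4 below, with a median of -0.02. MAP1B had 10.68, 10.33, 10.62 and 10.61 in saline and 10.05, 10.35, 10.16 and 10.22 in dexamethasone. Its difference was -0.37 (SE 0.13, 95% interval -0.68 to -0.06, adjusted p = 0.347 by limma with Benjamini-Hochberg). Saline 2 was the low saline sample and just under dexamethasone 2, the only point at which the groups overlapped. All 5 overlapping MAP1B probes gave differences below 0, from -0.46 to -0.23, and at A_04_P098600 the groups did not overlap, with 10.09 to 10.56 in saline and 9.73 to 10.01 in dexamethasone. The difference was -0.55 within Cy3 and -0.19 within Cy5.

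MAP2, the protein of dendritic microtubules, and MAPT, tau, the protein of axonal ones, are among the best known neuronal markers of this class. MAP2 had 13.20, 13.15, 12.36 and 13.04 in saline and 13.05, 12.82, 13.16 and 12.63 in dexamethasone. Its difference was -0.02 (95% interval -0.58 to 0.53), wide because saline 3 lay well below the other 3 saline samples. MAPT had 12.16 to 12.78 in saline and 12.22 to 12.58 in dexamethasone, a difference of -0.13 (95% interval -0.43 to 0.17). MAP1LC3B, the LC3 protein of autophagosomes, was 0.12 (SE 0.11). MAP7D2, which recruits kinesin-1 to microtubules, was above 0 at all 5 probes, 0.17 to 0.45, with dexamethasone 1 the highest sample at 9.71. With 75th-percentile scaling without loess MAP2 and MAPT turned to 0.62 and 0.50 and MAP7D2 to -0.24, beside a median over all genes of -0.24.

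The stathmin group held 3 tested genes. STMN1, which binds free tubulin and is abundant in immature neurons, read 15.85, 15.83, 15.96 and 16.10 in saline and 15.95, 16.06, 15.99 and 15.57 in dexamethasone, with dexamethasone 4 the lowest of all 8. Its difference was -0.04 (95% interval -0.38 to 0.29), and its sign changed under several alternatives. STMN4, a membrane-bound neuronal stathmin, was 0.28 (SE 0.13), with 12.01 to 12.40 in saline and 12.11 to 12.85 in dexamethasone, and 0.31 at its other fitted probe. UHMK1, a kinase that phosphorylates stathmin, was -0.15 (SE 0.12).

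Neurofilaments, the intermediate filaments that set axon calibre, varied widely between the samples of the dexamethasone group. The NEFM probe A_04_P016616 read 12.55, 13.28, 12.94 and 12.58 in saline and 13.88, 13.02, 12.42 and 14.19 in dexamethasone. The NEFL probe A_04_P022147 read 14.53, 14.39 and 13.86 in saline 2 to 4, with saline 1 missing, and 15.67, 13.70, 13.92 and 15.72 in dexamethasone. For both genes dexamethasone 1 and 4 were the 2 highest samples, while dexamethasone 2 and 3 lay within or below the saline range. The same split appeared at the other NEFM probes, with 13.05, 12.08, 11.64 and 13.31 at A_04_P016618, and at the NEFL probe A_04_P022149, with 14.58, 12.93, 12.83 and 14.74. These 2 samples come from different arrays and carry different dyes.

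The differences were 0.54 for NEFM (95% interval -0.52 to 1.60, adjusted p = 0.585 by limma with Benjamini-Hochberg) and 0.44 for NEFL (95% interval -1.20 to 2.09), both within the spread of the dexamethasone samples. Without dexamethasone 4 the NEFL difference was -0.25 and that of NEFM 0.20. In bulk tissue a change in how many cells of a type there are and a change in RNA per cell cannot be told apart. The 4 tested neuronal markers (SYT1, RTN1, UCHL1 and ENO2, of 10 listed) had a mean deviation of -0.11 to -0.00 in saline, and of 0.28, -0.24, 0.20 and -0.06 in dexamethasone 1 to 4. Dexamethasone 4 was thus among the high samples for neurofilaments but not for the mean of these markers. The markers themselves went apart, with differences of -0.32 for SYT1, 0.23 for RTN1, 0.36 for UCHL1 and 0.12 for ENO2. In dexamethasone 4 UCHL1 (15.04) was above its 3 saline values, SYT1 (11.50) and RTN1 (15.39) were below theirs, and ENO2 (11.28) was among them. The part of neuronal content in the neurofilament values was not tested. The 6 tested ependymal and choroid plexus markers, with FOXJ1 well above background in no sample, had 0.33, -0.18, -0.47 and 0.44 in dexamethasone 1 to 4 and -0.27 to 0.27 in saline. This mean followed TTR, the transthyretin of the choroid plexus, which read 18.27, 15.48, 13.94 and 18.19 in dexamethasone 1 to 4 and 15.50 to 17.14 in saline. Without TTR the mean deviation of the other 5 was 0.04, -0.02, -0.06 and 0.19 in dexamethasone 1 to 4 and -0.17 to 0.17 in saline. Among these 5, KL and SPAG6 were lower in dexamethasone 1 than in the other 3 dexamethasone samples. DNAI1 (9.78, 9.50, 9.36 and 9.76), CCDC39 (8.52, 8.32, 8.15 and 8.39) and RSPH1 (8.88, 8.74, 8.69 and 8.97) were higher in dexamethasone 1 and 4 than in dexamethasone 2 and 3. TTR was thus high in the same 2 dexamethasone samples as the neurofilaments. The part of TTR and of these markers in the neurofilament values was not tested.

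**Figure D2:**
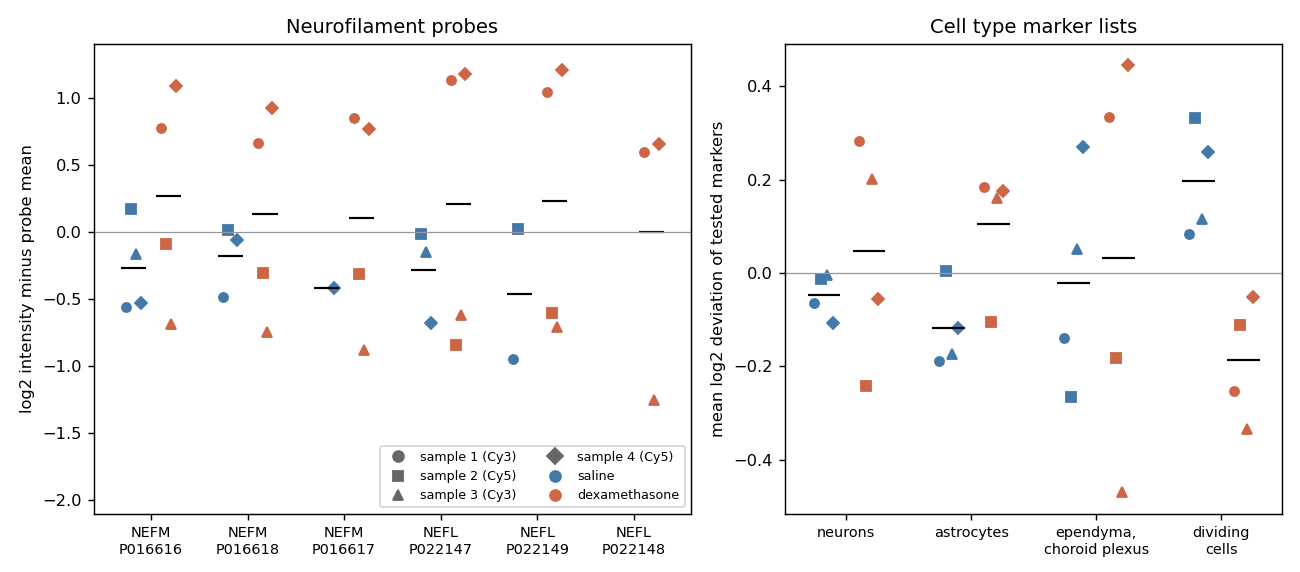
Left, log2 intensity minus the probe's mean for 6 neurofilament probes by sample, where marker shape gives the sample and dye, colour the group, and bars the group means. Right, the mean log2 deviation of the tested markers of 4 cell type lists. Dexamethasone 1 and 4 lie above all other samples at each neurofilament probe, for example at 13.88 and 14.19 for NEFM.

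Transport and other kinesins included the member with the smallest p. Of 13 tested of 20, 6 were above 0 and 7 below, with a median of -0.11. KIF5C at A_04_P024813 read 15.31, 15.22, 15.44 and 15.42 in saline and 14.52, 14.60, 14.75 and 14.87 in dexamethasone. All 4 dexamethasone samples were below all 4 saline samples, with a difference of -0.66 (SE 0.12, 95% interval -0.93 to -0.40), or 1.58-fold lower. The unadjusted p was 0.000377 and the adjusted p 0.133 by limma with Benjamini-Hochberg, so it was not called. The difference was -0.74 within Cy3 and -0.58 within Cy5.

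The tiled KIF5C probes did not give 1 answer. A_04_P024815 differed by -0.58 and A_04_P024812, which starts 1 base after A_04_P024813, by -0.05. At A_04_P024812 saline 2 to 4 read 15.08, 14.80 and 14.79 and dexamethasone 14.80, 14.77, 14.88 and 14.92, so only saline 2 stood above the dexamethasone samples. The remaining tiled probes lost too many saline values to outlier spots to be fitted. When outlier spots were kept, an alternative chosen after the probes had been seen to differ, they had means of 14.81 against 14.18 (A_04_P024811) and 14.37 against 13.93 (A_04_P024814), and A_04_P024812 moved to -0.17. The distant probe A_04_P024136 read 9.34 to 9.63 in saline and 9.25 to 9.42 in dexamethasone, a difference of -0.14. Every KIF5C probe was thus below 0 with outlier spots kept, but the size ran from -0.66 to -0.14.

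**Figure D3:**
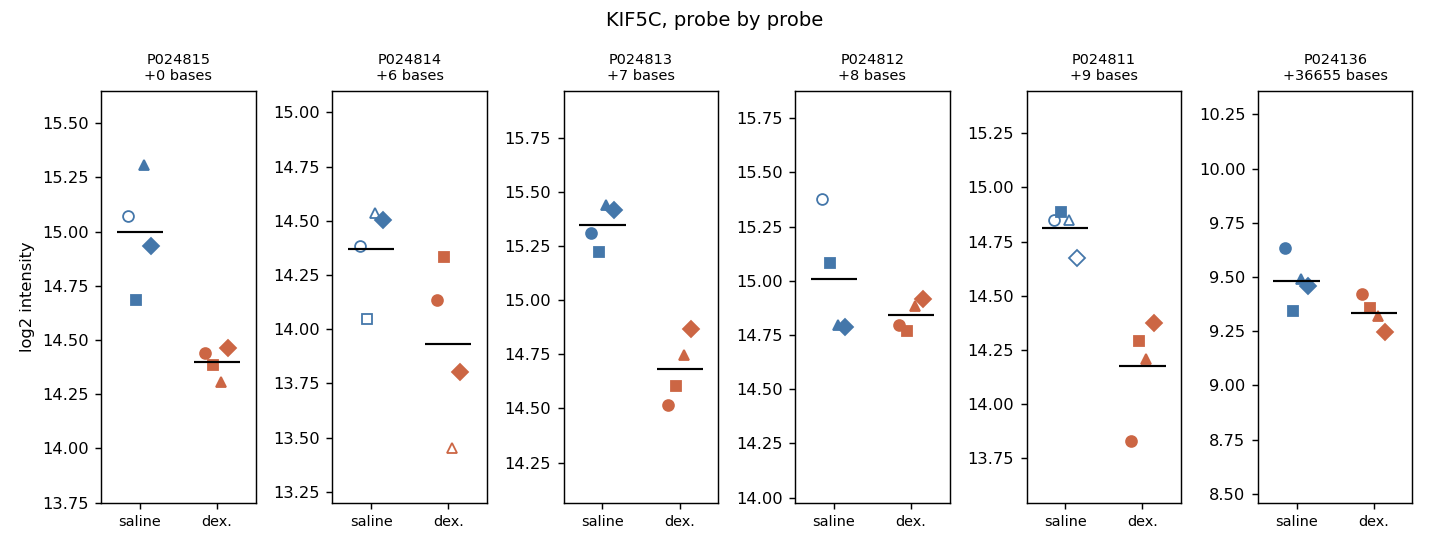
Log2 intensity of the 6 KIF5C probes in each sample, ordered by distance in bases from the start of the first, with panels of equal height in log2 units and bars at group means. Open markers are outlier spots left out of the test. The groups are apart at A_04_P024813 (15.22 to 15.44 against 14.52 to 14.87) and overlap at A_04_P024812.

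A change of scaling also moved KIF5C. With arrays scaled to the 75th percentile without loess, the median over all genes was -0.24 and KIF5C differed by -0.05. Averaging a gene's probes gave 0.09, in a setting where saline 1 entered with 2 of the 6 probes, 1 of them the dim A_04_P024136. Leaving out any 1 sample kept the difference between -0.72 and -0.62.

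KIF1B had 10.19, 10.10, 10.30 and 10.31 in saline and 10.00, 9.86, 10.12 and 9.80 in dexamethasone. The only overlap was dexamethasone 3 above saline 2, and the difference was -0.28 (SE 0.10, adjusted p = 0.347 by limma with Benjamini-Hochberg). Its other probe gave -0.28 as well, with 9.75 to 9.97 in saline and 9.55 to 9.77 in dexamethasone. KIF5A, the kinesin-1 heavy chain found mainly in neurons, was above 0 at all 5 probes (0.05 to 0.35). Its representative probe had 9.08 to 9.44 in saline and 9.28 to 9.65 in dexamethasone, with saline 1 the high saline sample, and a difference of 0.25 (SE 0.11). The KIF5A difference turned to -0.09 with 75th-percentile scaling without loess, where the median over all genes was -0.24. KIF5B, the form of kinesin-1 present in most cells, was near background and well above it in 2 samples of each group. KIF5C and KIF5A thus had differences of opposite sign, and the difference between these genes was not tested.

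**Figure D4:**
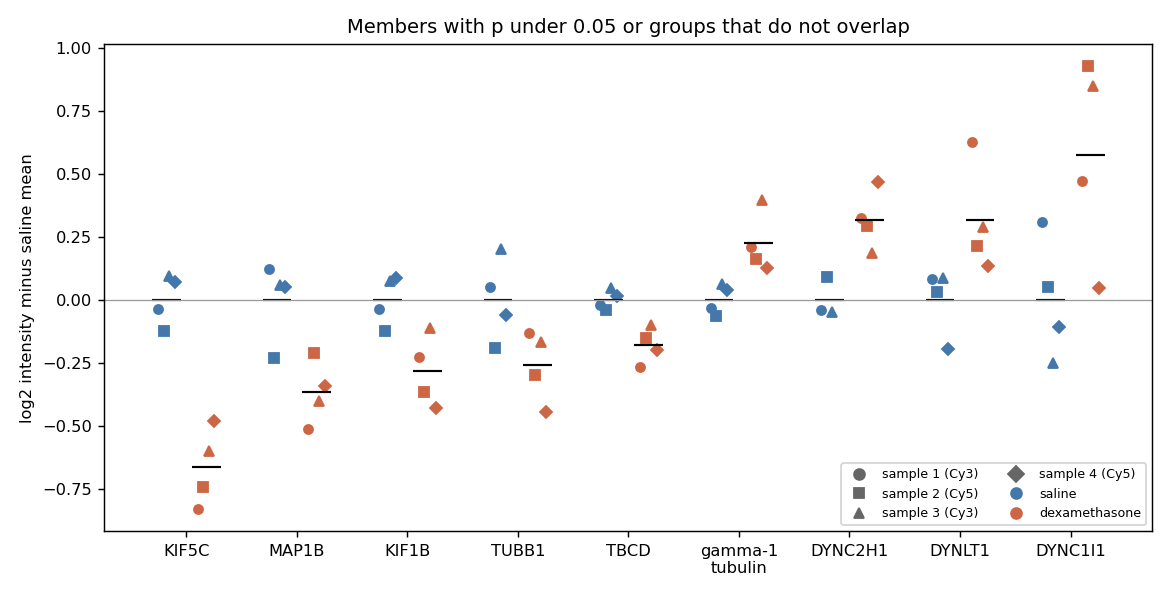
Log2 intensity minus the saline mean of the same probe, by sample, for the 9 members with an unadjusted p under 0.05 or with groups that do not overlap. Bars are group means. KIF5C shows the widest gap between groups, and DYNC1I1 the widest spread within dexamethasone, from 10.03 to 10.91 in log2 intensity.

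The mitotic kinesins move chromosomes and spindle poles. Of 8 genes 5 were tested, 2 above 0 and 3 below (median -0.05), and 0 of the 5 were well above background in all 8 samples. KIF11, which pushes spindle poles apart, had 8.14 to 8.40 in saline and 8.10 to 8.19 in dexamethasone, a difference of -0.12 (SE 0.10). KIF15 and KIF18A differed by -0.12 and -0.05. So near background these probes are a weak measure of any difference. By comparison, all 6 tested dividing-cell markers were below 0 (median -0.42) and 5 of them had an unadjusted p under 0.05, where 7.4% of all genes were lower at that p and 54.4% were above 0. Their mean deviation was 0.08 to 0.33 in saline and -0.33 to -0.05 in dexamethasone. The marker list was chosen with earlier results of these data known, so these counts only describe it. With 75th-percentile scaling without loess the mitotic kinesins had a median of -1.22 with 0 of 5 above 0, beside a median over all genes of -0.24. The axonemal dyneins, also low in intensity, had a median of -0.78 there with 0 of 6 above 0. The brighter tubulins had 0.48 with 7 of 8 above 0. The part of probe brightness in these medians was not tested.

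Most cytoplasmic dyneins lay above 0. Of 13 tested of 14, 12 were above it and 1 below, with a median of 0.20, where 54.4% of all genes were above 0. Between 9 and 12 of the 13 were above 0 under the alternative scalings and background corrections, with medians from 0.20 to 0.73. With limma and Benjamini-Hochberg adjustment 0 of the 13 passed an adjusted p of 0.05, and 3 of 13 had an unadjusted p under 0.05, all higher with dexamethasone, where 6.33% of all genes were. The samples' mean deviation over these genes was -0.28 to -0.02 in saline and 0.07 to 0.19 in dexamethasone. That mean rests on genes that share samples and arrays, and no test was made on it.

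DYNLT1, a light chain that links dynein to cargo, had 13.88, 13.82, 13.88 and 13.60 in saline and 14.42, 14.01, 14.08 and 13.93 in dexamethasone. The groups did not overlap, dexamethasone 1 was the highest, and the difference was 0.32 (SE 0.12, 95% interval 0.05 to 0.58, adjusted p = 0.347 by limma with Benjamini-Hochberg). DYNC2H1, the heavy chain of the dynein that works inside cilia, had 10.57, 10.703 and 10.56 in saline 1 to 3 and 10.94, 10.90, 10.79 and 11.08 in dexamethasone. Its groups did not overlap, with a difference of 0.30 (SE 0.11), but its other fitted probe, near background, gave -0.02.

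DYNC1I1, an intermediate chain enriched in neurons, had 10.30, 10.04, 9.73 and 9.88 in saline and 10.46, 10.91, 10.83 and 10.03 in dexamethasone. Dexamethasone 4 lay within the saline range and the other 3 above it. The difference was 0.57 (SE 0.25, unadjusted p = 0.0497 and adjusted p = 0.362 by limma with Benjamini-Hochberg), with 0.39 at the other probe. DYNC1I2, the form present in most cells, was 0.19 (SE 0.13) and above 0 at all 3 fitted probes. DYNC1LI1, a light intermediate chain, was 0.47 (SE 0.23), with 0.80 within Cy3 and 0.15 within Cy5.

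The motor subunit itself, DYNC1H1, had 12.11, 12.07, 12.28 and 12.46 in saline and 12.73, 12.21, 12.33 and 11.98 in dexamethasone. Dexamethasone 1 was the highest and dexamethasone 4 the lowest of all 8, and the difference was 0.08 (95% interval -0.33 to 0.49). DYNLL1, a light chain that also binds many other proteins, was 0.13 (SE 0.18), with its probes between -0.14 and 0.37. DYNLT3 was 0.32 (SE 0.16), with probes from -0.39 to 0.32.

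DYNLRB1, the roadblock light chain, averaged 12.81 ± 0.25 in saline (SD, n = 3) and 12.95 ± 0.05 in dexamethasone (SD, n = 4), a difference of 0.14 (SE 0.14). The DYNLRB1-like gene LOC100358485 could not be tested, and its probes share 39 to 42 bases with those of DYNLRB1 and lie at nearly the same place. They are shown because their signals cannot be assigned to 1 of the 2 names, with the 40 shared bases in capitals, on the minus strand at chr4:5182835-5186957 and chr4:5182855-5186977.
DYNLRB1 A_04_P076667: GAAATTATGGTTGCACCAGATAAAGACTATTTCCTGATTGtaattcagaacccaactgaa
LOC100358485 A_04_P076670: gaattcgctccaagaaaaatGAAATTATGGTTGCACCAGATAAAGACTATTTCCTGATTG

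Dynactin, the complex that couples dynein to its cargo, had 4 tested genes of 5, 3 above 0 and 1 below, with a median of 0.06. DCTN1, its largest subunit, had 8.97 to 9.13 in saline and 9.01 to 9.42 in dexamethasone, a difference of 0.15 (SE 0.10). DCTN5 and DCTN6 differed by 0.07 and -0.07. With 75th-percentile scaling without loess these 3 signs turned, to -0.31, -0.44 and 0.47, beside a median over all genes of -0.24. DCTN3 was not tested because outlier spots left under 3 values in a group.

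Axonemal dyneins drive the beat of motile cilia, which in the forebrain belong to the ependyma. Of 6 tested of 8, 3 were above 0 and 3 below, with a median of 0.07, and 3 of the 6 were well above background in all 8 samples. DNAH7 had 8.10 to 8.42 in saline and 8.30 to 8.85 in dexamethasone, a difference of 0.23 (SE 0.17), DNAH14 differed by 0.15 and DNAL1 by -0.14. DNAH7 and DNAH14 turned to -0.90 and -1.01 with 75th-percentile scaling without loess, where the median over all genes was -0.24. The median of the 6 axonemal dyneins was -0.78 in that setting, with 0 above 0.

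The 19 members not tested were TUBA4A, TUBD1, the alpha-1B-like tubulin, TPPP2, neurofilament-H, KIF12, KIF13B, KIF21B, KIF24, KIF6, KIFAP3, the KIF9-annotated gene, KIF14, KIF23, KIFC1, the DYNLRB1-like gene, DCTN3, DNAH8 and the DNAH11-annotated transcript. Of the 260 member probes, 158 were well above background in all 8 samples and 23 in none. Another 18 were above it in 1 or more dexamethasone samples but no saline sample, which is the case for 7.6% of all 43603 probes, and 0 the other way round, against 2.19% of all probes. The saline arrays had fewer spots above background within each dye.

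How well a gene's probes agreed could be read from 160 fitted member probes. At an unadjusted p under 0.05, 17 of the 160 passed, against 12.7% of all fitted probes. In the 37 tested genes with 2 or more fitted probes, all probes lay on the same side of 0 in 23 and on both sides in 14. The median range over the probes of a gene was 0.23. A range grows with the number of probes, so it cannot be set against the standard error of a single difference. Over 132 pairs of overlapping probes of the same gene the median distance between differences was 0.13 and the largest 0.61, in KIF5C. TUBA8, DYNLT3 and KIF5C are the examples given above.

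**Figure D5:**
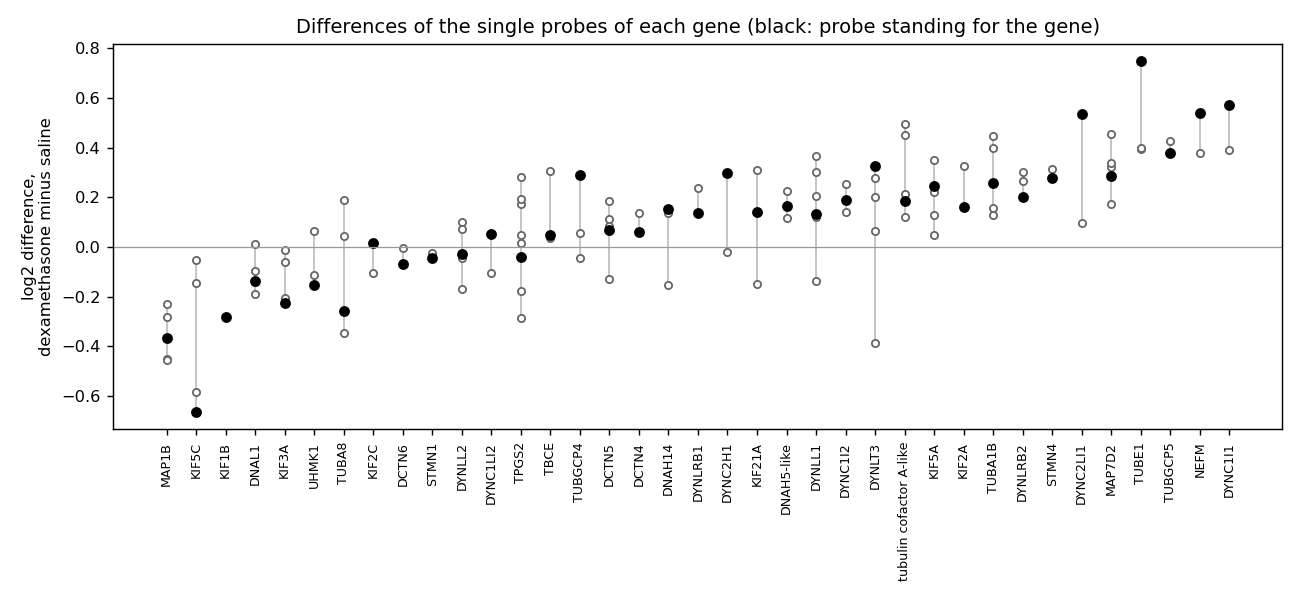
Log2 difference (dexamethasone minus saline) of each fitted probe for the 37 tested genes with at least 2, ordered by the median over probes, with the probe that stands for the gene in black and a line over the gene's range. In 23 genes all points lie on 1 side of 0, among them MAP1B, KIF5C and DYNC1I1.

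Other genes of the same machinery, from a list of 56, gave a like picture. Of the 30 tested, 16 were above 0 and 14 below, with a median of 0.04, and 0 passed an adjusted p of 0.05. At an unadjusted p under 0.05, 3 of the 30 were higher and 2 lower, where 6.33% and 7.4% of all genes were. CAMSAP2, which caps the minus ends of microtubules, was -0.45 (SE 0.14) at the probe that stands for it and from -0.74 to 0.17 over its 5 fitted probes. CDK5R1, the activator of the neuronal kinase CDK5, was -0.31 (SE 0.09). CLASP2 and CKAP5, which promote growth at plus ends, were 0.32 (SE 0.13) and 0.28 (SE 0.10). The groups did not overlap in these 4, which were named for the smallest p in the list, nor in CLIP1 and SPTBN1. Over all genes tested, 13.4% did not overlap. NDE1, HOOK1 and NEDD1 were well above background in no sample.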

How the data were processed

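The deposited scanner files hold spot intensity per dye from Agilent Feature Extraction (10.7.3.1 is the version in the submitters' processing notes, and the file headers give 11.0.1.1), and the deposited series table holds a signal per spot. The genome build, per the file headers, is oryCun2. Each sample was read from its own dye. Intensities were corrected with normexp (offset 50), normalised by loess within and Aquantile between arrays, and taken as log2 values. Probes were kept when 4 or more of the 8 samples were well above background, and the brightest probe with at least 3 values in each group stood for its gene. limma 3.58.1 in R 4.3.3 (lmFit, eBayes) compared the groups over 11243 genes with a term for dye and the array as a random block (correlation 0.239), 2-sided, with Benjamini-Hochberg adjustment. A fit with the replicate number as a block and the other alternatives are in the closing section. The fit was tested on simulated data that held no effect of slide or scan day, so that test cannot speak to either. Precision is limited by the number of arrays, and p-values measure the spread between these samples.

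Members and lists were chosen with earlier results of these data known. Genes named are the 3 of each role with the smallest p and well-known members fixed by name. TUBA1B, TUBE1, beta-2 tubulin, DYNC1I2, DYNC1LI1, DYNLT3, DYNLRB1, KIF5B and TTR were added after their values were seen. Names came from the array's annotation and RefSeq's table of assembly mOryCun1.1, which gave a symbol to 78 of the 88 genes. The remaining marker lists had medians of 0.03 (5 myelin genes tested), -0.12 (3 oligodendrocyte precursor genes), 0.15 (6 astrocyte genes), -0.05 (2 microglial genes), -0.02 (3 endothelial genes) and 0.11 (6 ependymal and choroid plexus genes).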

Additional observations from a re-analysis of the deposited data

Results flagged for a closer look

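In DYNLT3, a dynein light chain, saline 2 lay apart from the other saline samples, at 9.90 in log2 normalised intensity against 9.52 to 9.57. Of 75 groups of 4 samples checked this was the only 1 with a gap that wide, and chance alone marks about 1 in 20 such groups.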

How the results depend on the processing

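Of the 40 members whose difference is given by name, 18 kept its direction under all of the 28 alternatives in which they could be fitted, and 47 of 1085 comparisons turned. Several alternatives could hardly turn a direction, so these counts overstate how firm the directions are. A trend and robust prior leaves each estimate as it was, and the fit over every kept probe reads the same probe. Leaving out the array block or dye term, or using a replicate block, moves an estimate only where values are missing. In each of these settings 40 stayed the same and 0 turned. The count of members called was 0 except in 2 settings. With arrays scaled to the 75th percentile without loess it was 9 of 69, where 2080 genes were called (18.5%). Without array 1, which leaves the saline group on a single array, it was 13 of 65, where 2213 genes were called (21.2%), KIF5C among them (adjusted p = 0.0131). Genes called were 7 in the main setting, 15 with the processed signals, 3 with probes above background in all 8 samples, 2 with no filter, 22 without the array block, 0 with array means, 15 without the dye term, 20 with the deposited table and 21 at an adjusted p of 0.10. They were 0 to 11 with 1 sample left out (0 without any 1 of the 4 dexamethasone samples), and 191, 0 and 1 without arrays 2, 3 and 4. The members' median was 0.29 with the 75th-percentile scaling (all genes -0.24) and 0.13 with probes above background in all 8 samples, and 0.02 to 0.08 with 1 sample left out. Members called stayed at 0 with 1 sample left out.

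Differences that turned, by setting, were as follows. With 75th-percentile scaling (median over all genes -0.24): DCTN1 -0.31, DCTN5 -0.44, DCTN6 0.47, DNAH14 -1.01, DNAH7 -0.90, KIF5A -0.089, MAP2 0.62, MAP7D2 -0.24, MAPT 0.50, STMN1 0.54, TBCD 0.29, TUBA8 0.16, TUBB1 0.38 and TUBGCP5 -0.27. With processed signals: DCTN6 0.22, DNAH14 -0.015, DYNC1H1 -0.051, DYNLL1 -0.032 and TUBA1B -0.11. With the deposited table: DCTN6 0.0069 and TUBA1B -0.076. With genes measured in all 8 samples, where another probe stands for it: DYNC2H1 -0.019. With probes averaged: DCTN6 0.021, KIF5C 0.089 and STMN1 0.024. With outlier spots kept: DCTN6 0.034 and STMN1 0.037. With quantile normalisation: STMN1 0.022. Without array 1: DYNC1H1 -0.061 and MAP2 0.21. Without array 2: DCTN5 -0.042, DYNLRB1 -0.0049, KIF15 0.094 and STMN1 0.052. Without array 3: DYNC1H1 -0.076. Without array 4: STMN1 0.067. With 1 sample left out the range was -0.039 to 0.21 for DYNC1H1, -0.26 to 0.10 for MAP2, -0.25 to 1.11 for NEFL, -0.11 to 0.077 for STMN1 and -0.24 to 0.013 for KIF15. Unless said above, the cause was not tested.

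Whether the numbers pair the samples could not be settled, because groups of 4 are small and same-numbered samples also share a dye. The deviations of same-numbered samples correlated at -0.11, -0.14, -0.02 and 0.09. Only saline 4 correlated best with the dexamethasone sample of its own number. With the replicate number as a block, 5 genes and 0 members were called. Signal over background limits the mitotic kinesins and axonemal dyneins.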
